A study of Homo sapiens with 94 samples.

Results

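K-975 at 200 mg/kg was compared with its vehicle in NCI-H226 tumors taken at 3-6 h after a single dose. The comparison covers 20 of the 94 tumors of the series, chosen by the cage group named in their labels. These are 10 tumors at 200 mg/kg (cage groups 4 and 5, 5 tumors each) and 10 tumors given vehicle (cage groups 2 and 3, 5 tumors each). NCI-H226 is an established human cell line of pleural mesothelioma with a deletion of NF2, grown subcutaneously in female immunodeficient SCID mice (CB17/lcr-Prkdcscid/lcrIcoCrl) of 6 to 8 weeks, and dosing began at about 300 mm3. Every tumor carried the NF2 deletion, the vehicle tumors included, and all tumors came from this 1 cell line. Both arms received 20 mL/kg by mouth of a mixture of ethanol, Solutol and injectable glucose, with K-975 in the treated arm. The labels do not say which cage group was taken at 3 h and which at 6 h. Sample titles number cage groups 2 and 4 in 1 run and cage groups 3 and 5 in a later run, without saying why. Cage groups were nested in doses, with 2 cage groups in each arm. Cage, run of titles and time within a dose cannot be told apart. The same study held 10 tumors at 30 mg/kg and 10 at 100 mg/kg, both dosed at 10 mL/kg, and 5 untreated tumors.

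TEAD1 to TEAD4 are DNA-binding proteins that have little activity of their own and act through the co-activators YAP1 and WWTR1 (TAZ). The Hippo kinases LATS1 and LATS2 phosphorylate both co-activators and hold them in the cytoplasm, and NF2 helps to switch these kinases on, so that cells without NF2 keep YAP1 in the nucleus. K-975 binds covalently to the lipid pocket of TEAD proteins, where palmitate normally sits. Direct targets such as CCN1 (CYR61) and CCN2 (CTGF), which encode secreted matricellular proteins, respond to YAP1-TEAD activity within hours, as do several inhibitors of the pathway that close a negative feedback loop.

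The level of a gene is given as FPKM (fragments per kilobase of transcript scaled to the mapped fragments of the library), and differences were tested on log2(FPKM + 1) with limma over the 45 libraries of the study. The fit held 1 coefficient per cage group. Its p-values rest on the spread of tumors within cage groups and leave out variation between cage groups. Between 11395 and 11657 genes reached an FPKM of at least 1 in the 20 tumors, and their relative depth lay between 0.653 and 1.62. Relative depth is an indirect estimate from scarce genes of the series. It is the inverse of the median ratio of their FPKM to each gene's median over the libraries that hold it. Mesothelial markers were present. The median over the 20 tumors was 639 FPKM for CALB2, 245 for MSLN and 28.7 for WT1, and 0 of the 10 mesothelial markers passed the test. The table holds human genes, and 3 of 3 skeletal muscle markers were listed at 0 in the 20 tumors. Of the 3 hemoglobin genes HBA1 and HBB were listed at 0 in the 20 tumors, and HBA2 was at 0 in 8 of them and reached 5.11 FPKM. In bulk tumors fewer cells of a type and less RNA per cell cannot be told apart.

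At 200 mg/kg the genes that changed were few, and mostly fell. Of 12654 genes tested, 9 (0.0711%) passed an adjusted p of 0.05, 8 of them lower (0.0632%) and 1 higher. The lowest p-values belonged to CCN1 and to AMOTL2, an angiomotin protein that binds YAP1 and is itself a YAP1-TEAD target. AJUBA, a LIM protein that binds LATS kinases, fell as well, with the secreted metalloproteinase ADAMTS15, the polo-like kinase PLK2, the Golgi GTPase RAB6A, the deubiquitinase MINDY2 and RUSC2. RGS3, which accelerates GTP hydrolysis by G proteins, was the gene that rose. At an unadjusted p under 0.05, 475 genes were higher and 429 lower (7.14% together), and the median difference over all genes tested was 0.01 on the log2 scale. No gene had its 10 treated tumors entirely outside the range of the 10 vehicle tumors (0.00% on either side). At least 5 treated tumors lay below all vehicle tumors in 196 genes (1.55%) and above them in 230 (1.82%).

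**Figure D1:**
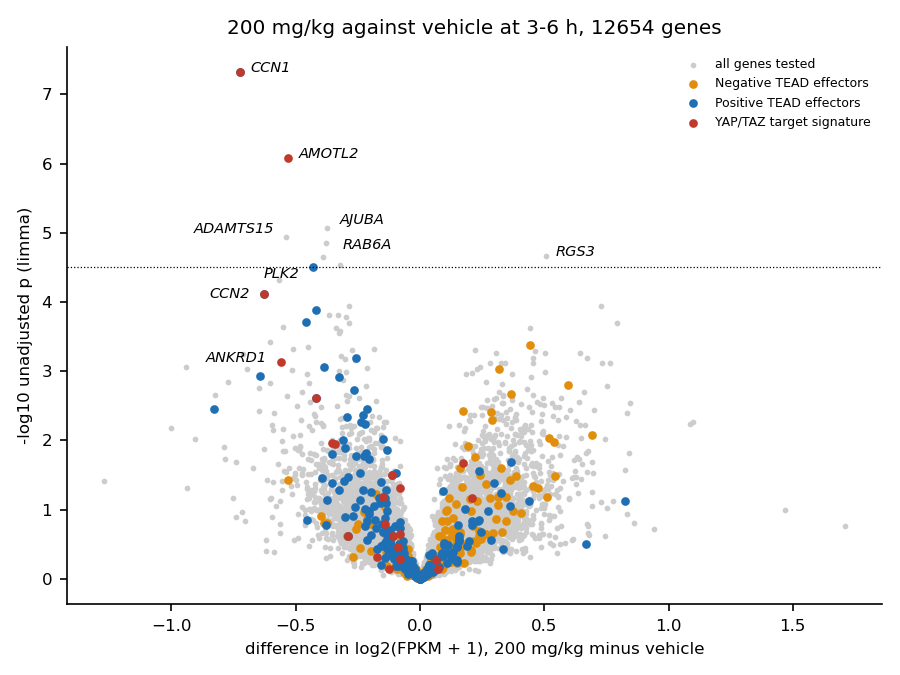
Each point is 1 of 12654 genes, with the difference in log2(FPKM + 1) between 200 mg/kg and vehicle on the horizontal axis and the -log10 unadjusted limma p on the vertical axis, and colors for the YAP/TAZ targets and both effector lists. The dotted line marks the largest p that passed the adjusted threshold, and CCN1 and AMOTL2 lie farthest above it.

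CCN1 (chr1:85580761-85583962, GRCh38, plus strand, positions counted from 1 with the deposited starts raised by 1) measured 148 to 271 (median 204) FPKM with vehicle and 83.2 to 194 (median 119) FPKM at 200 mg/kg. Below the lowest vehicle tumor lay 8 of 10 treated tumors, 3 of 5 in cage group 4 and 5 of 5 in cage group 5, and the highest treated tumor (tumor 2 of cage group 4) overlapped the vehicle range. The log2 difference was -0.72 (SE 0.109, 95% interval -0.94 to -0.50, limma adjusted p = 0.000607), a decrease of 39.4% on the FPKM + 1 scale. CCN1 stayed past the threshold when each of the 20 tumors was left out in turn, with differences from -0.79 to -0.66, but not with vehicle cage group 2 alone as the control (-0.60, limma adjusted p = 0.0698).

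AMOTL2 (chr3:134355874-134375479, minus strand) ranged over 22.3 to 35.5 (median 27.5) FPKM with vehicle and 14 to 28.5 (median 19.1) FPKM at 200 mg/kg. Again 8 of 10 treated tumors were below all vehicle tumors, among them the 5 of cage group 5, whereas tumor 3 of cage group 4 sat near the vehicle median. The log2 difference was -0.53 (SE 0.0914, limma adjusted p = 0.00528), and it too passed without any single tumor, but not with vehicle cage group 3 alone as the control (-0.40, limma adjusted p = 0.203). AJUBA (chr14:22971174-22982642, minus strand) ran over 46.7 to 75.1 (median 62.6) FPKM with vehicle and 34.1 to 59.3 (median 46.5) FPKM at 200 mg/kg. The ranges overlapped, and 6 of 10 treated tumors were below all vehicle tumors (log2 difference -0.37, SE 0.0731, limma adjusted p = 0.0355).

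ADAMTS15 (chr11:130448974-130476641) spanned 12.4 to 22.1 (median 17.3) FPKM with vehicle against 9.41 to 17 (median 11.4) FPKM at 200 mg/kg, with a log2 difference of -0.54 (limma adjusted p = 0.0355). PLK2 (chr5:58453982-58460260), which acts in the stress response and in centriole duplication, spanned 197 to 446 (median 287) FPKM against 179 to 276 (median 216) FPKM (log2 difference -0.43, limma adjusted p = 0.0442). The arms overlapped in both genes, with 5 of 10 treated tumors below all vehicle tumors for ADAMTS15 and 3 of 10 for PLK2. RUSC2 (chr9:35490127-35561898) measured 21.4 to 29.9 (median 25.7) FPKM with vehicle and 17.3 to 27.6 (median 20.2) FPKM at 200 mg/kg, with all 5 tumors of cage group 5 below the vehicle range (log2 difference -0.32, limma adjusted p = 0.0442). MINDY2 (chr15:58771192-58861900) measured 23 to 42.8 (median 31.1) FPKM and 19.7 to 26.4 (median 24.1) FPKM (log2 difference -0.39, limma adjusted p = 0.0403). The treated tumors of MINDY2 all lay below the vehicle median.

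RAB6A (chr11:73675638-73761137), which shares nearly its whole coding sequence with the retrogene RAB6C so that the split of reads between them is uncertain, spanned 57.9 to 74.3 (median 67.1) FPKM with vehicle and 41.9 to 64.2 (median 50) FPKM at 200 mg/kg. Below all vehicle tumors were 7 of 10 treated tumors (log2 difference -0.38, limma adjusted p = 0.0355). Against the 5 untreated tumors, which held 42.1 to 69.7 (median 54.6) FPKM, the difference was -0.08 (limma adjusted p = 0.915). RGS3 (chr9:113444731-113597743) spanned 16 to 39.8 (median 24.3) FPKM with vehicle and 28.7 to 41.2 (median 36.2) FPKM at 200 mg/kg. Its treated tumors were all above the vehicle median, 3 of 10 above all vehicle tumors (log2 difference 0.51, limma adjusted p = 0.0403), but against untreated tumors the difference was 0.12 (limma adjusted p = 0.899). Of the 9 genes, 5 also passed against untreated tumors (CCN1, AMOTL2, AJUBA, ADAMTS15 and PLK2), 5 against vehicle cage group 2 alone (AMOTL2, AJUBA, ADAMTS15, MINDY2 and PLK2) and 2 against vehicle cage group 3 alone (CCN1 and RGS3). None of the 9 passed against each of these 3 controls.

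**Figure D2:**
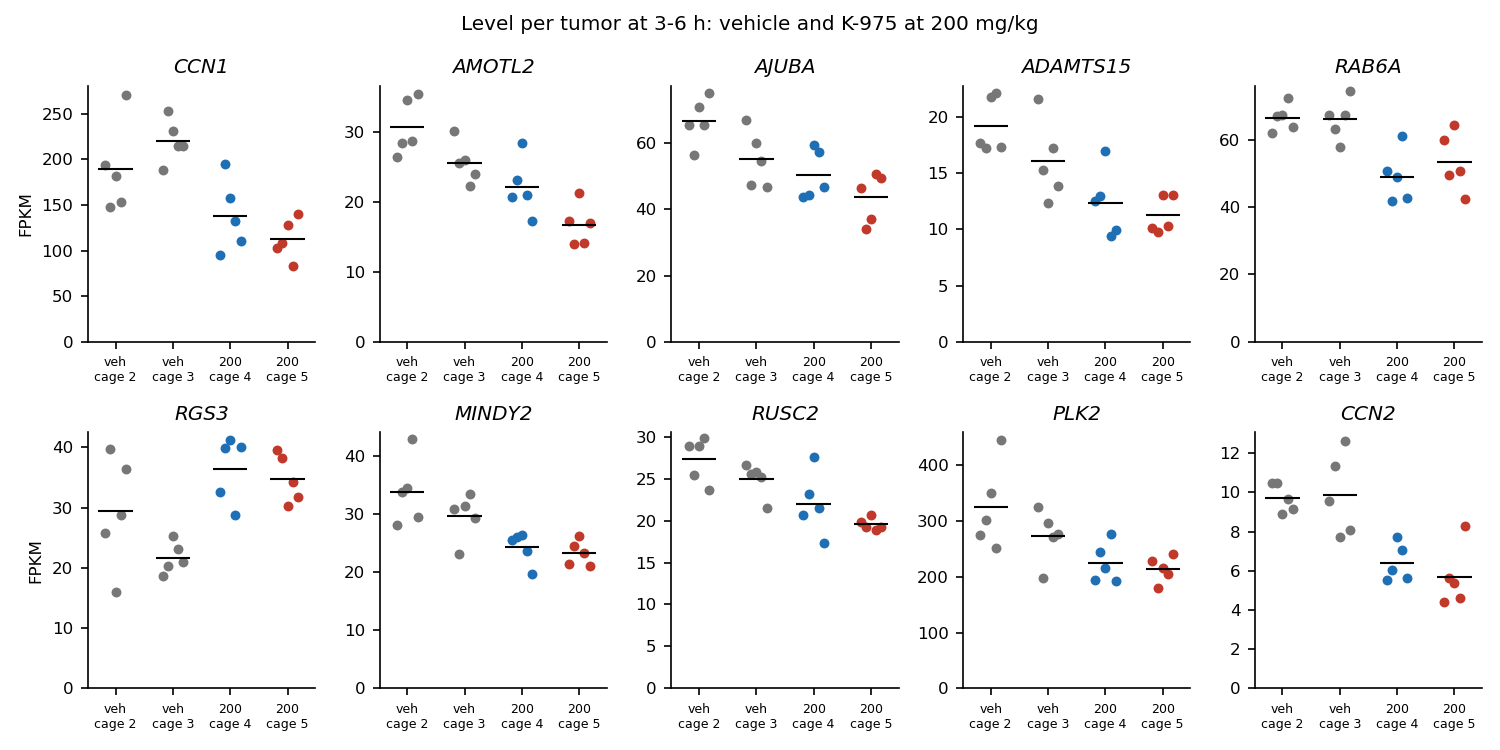
FPKM of the 9 genes past the threshold and of CCN2 in each of the 20 tumors (points), by cage group, with the mean of each cage group as a bar. The 5 tumors of cage group 5 lie below the vehicle range for CCN1, AMOTL2 and RUSC2, and RGS3 is the panel in which treated tumors are higher.

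The count of 9 changed with the libraries and the model used. With only the 20 tumors in the fit, 0 genes passed and CCN1, AMOTL2 and CCN2 each had a limma adjusted p of 0.0592. With cage group as a random effect CCN1 alone passed (limma adjusted p = 0.00964). In that fit all genes shared 1 correlation within cage groups, 0.0124, and tumors still counted as the replicates, so it is not a test over cage groups. With all 94 libraries, 3 of which held few genes, 0 genes passed. Leaving out vehicle tumors 3 or 4 of cage group 2 or 1, 3 or 4 of cage group 3, or treated tumors 1, 2 or 5 of cage group 4 or 1, 2 or 4 of cage group 5, brought the count to between 2 and 5. In these 20 fits AJUBA, ADAMTS15 and RAB6A each missed the threshold 11 times, RGS3 14 times, MINDY2 and PLK2 15 times and RUSC2 16 times.

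CCN2 (chr6:131948176-131951373, minus strand) missed the threshold. It measured 7.7 to 12.7 (median 9.63) FPKM with vehicle and 4.41 to 8.28 (median 5.64) FPKM at 200 mg/kg. Of the 10 treated tumors 8 were below all vehicle tumors, 4 of 5 in cage group 4 and 4 of 5 in cage group 5. The log2 difference was -0.63 (SE 0.143, 95% interval -0.92 to -0.34, unadjusted p = 7.56e-05, limma adjusted p = 0.0869). With untreated tumors as the control it was -0.92 and passed (limma adjusted p = 0.0114), and it also passed with the 91 libraries of the 3 studies in the fit (limma adjusted p = 0.0338).

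The 22 YAP/TAZ target genes were all tested, and 2 of them (CCN1 and AMOTL2) passed the threshold. At an unadjusted p under 0.05, 9 of 22 (40.9%) were lower, against 3.39% of all genes tested, and 1 was higher. The median over the 22 was -0.13, against 0.01 for all genes tested. ANKRD1, a nuclear ankyrin-repeat protein induced by stretch, measured 0.83 to 2.14 (median 1.44) FPKM with vehicle and 0 to 1.68 (median 0.662) FPKM at 200 mg/kg, and was listed at 0 in 1 tumor (log2 difference -0.56, limma adjusted p = 0.196). The stress kinase NUAK2 measured 13.3 to 28.2 (median 20.2) FPKM and 9.77 to 19.1 (median 14.1) FPKM (-0.42, unadjusted p = 0.00241, limma adjusted p = 0.32). Lower values of smaller size or certainty were found for FJX1 (-0.35), LATS2 (-0.34), CRIM1 (-0.11) and MYOF (-0.08), with limma adjusted p-values of 0.491 to 0.694. The 1 member higher at an unadjusted p under 0.05 was ASAP1 (0.17, limma adjusted p = 0.583). Per tumor, the median deviation of the 22 genes from the vehicle mean ran from -0.07 to 0.09 on the log2 scale with vehicle. At 200 mg/kg it ran from -0.47 to -0.01. The ranges overlapped, since treated tumors 2 and 3 of cage group 4 (-0.03 and -0.01) lay inside the vehicle range. Vehicle tumors had medians below 0 as well, so the sign does not separate the arms. With vehicle cage group 2 alone as the control, the 9 members became 5 and the difference of NUAK2 -0.21, and with cage group 3 alone they became 11. Against untreated tumors the difference of FJX1 was -0.08, and with a pseudocount of 0.1 that of ANKRD1 was -1.31.

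The 250 bases before the RefSeq start of CCN2, ANKRD1 and NUAK2 are shown because they hold the letters of the TEAD motif more than once, and that of AMOTL2 because it passed the test and does not. Sequences read 5′ to 3′ on the strand of the gene (build GRCh38.p14), and capitals mark CATTCC or, for the other strand, GGAATG. The windows are chr6:131951373-131951622 (minus strand), chr10:90921088-90921337 (minus strand), chr1:205321746-205321995 (minus strand) and chr3:134375418-134375667 (minus strand).
CCN2: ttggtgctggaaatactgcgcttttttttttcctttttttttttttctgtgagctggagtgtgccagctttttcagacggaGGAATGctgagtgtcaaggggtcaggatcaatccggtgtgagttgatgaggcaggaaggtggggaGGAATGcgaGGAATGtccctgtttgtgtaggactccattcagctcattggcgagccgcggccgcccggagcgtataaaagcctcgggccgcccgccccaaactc
ANKRD1: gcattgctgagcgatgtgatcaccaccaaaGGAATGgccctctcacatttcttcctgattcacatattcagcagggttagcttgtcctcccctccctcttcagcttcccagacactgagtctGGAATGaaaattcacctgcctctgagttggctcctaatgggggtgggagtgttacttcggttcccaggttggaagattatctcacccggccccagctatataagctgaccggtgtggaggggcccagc
NUAK2: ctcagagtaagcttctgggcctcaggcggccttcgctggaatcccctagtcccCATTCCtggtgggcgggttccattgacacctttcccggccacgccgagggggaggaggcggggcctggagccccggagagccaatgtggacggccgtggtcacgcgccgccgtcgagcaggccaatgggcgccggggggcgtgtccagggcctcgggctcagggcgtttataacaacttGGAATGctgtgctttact
AMOTL2: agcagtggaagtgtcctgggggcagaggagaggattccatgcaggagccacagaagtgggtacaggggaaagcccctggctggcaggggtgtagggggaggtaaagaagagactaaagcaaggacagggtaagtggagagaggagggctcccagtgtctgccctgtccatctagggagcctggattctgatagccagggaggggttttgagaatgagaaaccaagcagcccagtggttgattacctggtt
The motif occurs 3 times in the CCN2 window, at 169, 104 and 95 bases before the start, counted from the first base of each match in the direction of the gene. Over the whole RefSeq table, 3248 of 27305 windows (11.9%) held it on either strand, and 960 of 10156 (9.45%) among the genes tested. Of the 16 YAP/TAZ target genes with an entry, 6 (37.5%) held it, and of the 7 genes past the threshold with an entry, 0 did. RefSeq starts need not match the deposited loci. Among the genes past the threshold, the windows of AMOTL2, AJUBA, MINDY2, PLK2 and RAB6A reach into the deposited locus. A match in this window is a description of the letters, and TEAD proteins often bind at enhancers outside it.

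The study's own effector lists, which it derived from other published perturbations of YAP1 and TEAD and not from these tumors, differed in opposite directions. Of 237 positive effectors tested (249 in the list), 34 (14.3%) were lower at an unadjusted p under 0.05 and 3 (1.27%) higher, against 3.39% lower and 3.75% higher among all genes tested. Of 189 negative effectors tested (233 in the list), 22 (11.6%) were higher and 1 (0.529%) lower. The medians were -0.04 and 0.08. Between vehicle cage groups 3 and 2, 24 of the 189 negative effectors (12.7%) were higher and 12 (6.35%) lower. Of the 237 positive effectors, 10 (4.22%) were lower and 17 (7.17%) higher there. Among all genes tested, 4.89% were higher and 4.71% lower between these vehicle cage groups. Per tumor, the median deviation of the positive effectors from the vehicle mean ran from -0.14 to 0.15 with vehicle and from -0.20 to 0.05 at 200 mg/kg. That of the negative effectors ran from -0.12 to 0.08 and from -0.07 to 0.15, so the arms overlapped in both lists. At the adjusted threshold 2 positive effectors (CCN1 and PLK2) and 0 negative effectors passed. The 34 positive and 22 negative effectors became 28 to 37 and 17 to 27 under the other fits and controls tried, and 29 to 43 and 16 to 24 without single tumors.

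Among the positive effectors, after CCN1, PLK2 and CCN2, the lowest p-values (genes picked after their values were seen) belonged to TUFT1, MID1, WWC2, PKP2, ADAMTS1 and SKP2. TUFT1 (tuftelin) measured 35.5 to 62.2 (median 47.3) FPKM with vehicle and 22.5 to 47.9 (median 37.5) FPKM at 200 mg/kg (-0.42, limma adjusted p = 0.117). MID1, an E3 ubiquitin ligase of microtubules, measured 98.5 to 156 (median 122) FPKM and 67.3 to 116 (median 87.3) FPKM (-0.46, limma adjusted p = 0.127), with 7 of 10 treated tumors below all vehicle tumors. WWC2, a relative of the LATS activator KIBRA, measured 60.6 to 80.3 (median 73.9) FPKM and 44.9 to 71.7 (median 59.6) FPKM, and 8 of 10 treated tumors were below all vehicle tumors (-0.26, limma adjusted p = 0.196). The desmosomal plakophilin PKP2 (-0.39), the metalloproteinase ADAMTS1 (-0.64) and SKP2, the F-box subunit that targets cell cycle inhibitors (-0.32), had limma adjusted p-values of 0.208 to 0.227.

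The lowest difference of the list was that of ADM, a vasodilator peptide gene that hypoxia induces, with 44.4 to 262 (median 91) FPKM in vehicle and 26.4 to 142 (median 52.5) FPKM in treated tumors (-0.83, limma adjusted p = 0.359). Between vehicle cage groups 3 and 2 the difference of ADM was 1.10 (unadjusted p = 0.00605), and its difference at 200 mg/kg was -0.28 against cage group 2 alone and -1.38 against cage group 3 alone. Among the negative effectors the lowest p-values belonged to RAPGEFL1, KLF10, OASL and CDC42EP4, likewise picked after their values were seen. CDC42EP4, an effector of the GTPase CDC42, measured 6.62 to 11.8 (median 10.5) FPKM with vehicle and 9.31 to 16.2 (median 12.8) FPKM at 200 mg/kg, and 6 of 10 treated tumors were above all vehicle tumors (0.37, limma adjusted p = 0.319). KLF10, a zinc-finger repressor induced by TGF-beta, measured 21.4 to 32.6 (median 27.2) FPKM and 26.7 to 43.7 (median 32.1) FPKM (0.32, limma adjusted p = 0.208). RAPGEFL1 (0.44) and the interferon-induced OASL (0.60) had limma adjusted p-values of 0.191 and 0.271. Against untreated tumors the difference was 0.02 for CDC42EP4 and 0.08 for RAPGEFL1, while vehicle cage group 2 by itself gave 0.22 for CDC42EP4 and 0.27 for RAPGEFL1.

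Transcripts of the targeted factors themselves did not pass the test. TEAD1, the most abundant of them, measured 106 to 158 (median 134) FPKM with vehicle and 123 to 152 (median 133) FPKM at 200 mg/kg (0.0026, 95% interval -0.13 to 0.14), and its sign turned under 3 of 13 other settings. TEAD4 measured 31.5 to 48.8 (median 39.8) FPKM and 26.1 to 43.8 (median 35.1) FPKM (-0.12, interval -0.31 to 0.07), and TEAD2 (0.20, interval -0.10 to 0.49) and TEAD3 (-0.05, interval -0.25 to 0.14) were lower in abundance. YAP1 measured 63.4 to 91.4 (median 75) FPKM and 64 to 82.2 (median 74.8) FPKM (-0.02, interval -0.14 to 0.10). WWTR1 measured 8.83 to 16.3 (median 11.7) FPKM with vehicle and 11.6 to 27.7 (median 16.1) FPKM at 200 mg/kg, and 5 of 10 treated tumors were above all vehicle tumors (0.40, interval 0.10 to 0.71, unadjusted p = 0.0103, limma adjusted p = 0.487). Those of TEAD2 and WWTR1 were the widest of these intervals. VGLL3, a cofactor that competes with YAP1 for TEAD, measured 141 to 172 (median 152) FPKM with vehicle and 95.3 to 162 (median 133) FPKM at 200 mg/kg (-0.20, limma adjusted p = 0.398).

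Of 26 Hippo kinases and adaptors, 24 were tested and 2 (AMOTL2 and AJUBA) passed. At an unadjusted p under 0.05, 6 of 24 (25%) were lower, against 3.39% of all genes tested, and the median was -0.05. Beside AMOTL2, AJUBA and WWC2 these were LATS2, WWC1 and WTIP, each of them an inhibitor of YAP1 or a partner of LATS kinases. The lists overlap, since AMOTL2 and LATS2 are also YAP/TAZ targets and WWC1 and WWC2 also positive effectors. LATS2 measured 20.3 to 28.5 (median 24.4) FPKM with vehicle and 12.3 to 30.5 (median 17) FPKM at 200 mg/kg, with 6 treated tumors below and 2 above all vehicle tumors (-0.34, limma adjusted p = 0.496). WWC1 (KIBRA) measured 332 to 432 (median 364) FPKM and 279 to 409 (median 339) FPKM (-0.13, limma adjusted p = 0.514).

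In the other pathways no member passed the test. At an unadjusted p under 0.05, 3 of 26 TGF-beta ligands, receptors and targets (11.5%) were lower and 2 (7.69%) higher, against 3.39% and 3.75% of all genes tested. BAMBI, a pseudoreceptor of the TGF-beta family, measured 16 to 24.5 (median 19.5) FPKM with vehicle and 12.2 to 18.6 (median 14.9) FPKM at 200 mg/kg (-0.37, limma adjusted p = 0.12). INHBA, the activin A subunit, measured 41.2 to 75.8 (median 58.1) FPKM and 19.4 to 65.8 (median 30.1) FPKM, and 7 of 10 treated tumors were below all vehicle tumors (-0.71, limma adjusted p = 0.191). CCN3, a relative of CCN1 and CCN2, was higher at the unadjusted level but scarce, with 0 to 0.692 (median 0.175) FPKM in vehicle and 0.168 to 2.96 (median 0.652) FPKM in treated tumors (0.64, limma adjusted p = 0.191), and its difference from untreated tumors was 0.11.

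Of 18 heat shock and chaperone genes tested, 4 were lower and 0 higher at an unadjusted p under 0.05, against 3.39% and 3.75% of all genes tested. Between vehicle cage groups 3 and 2, 3 of the 18 (16.7%) were lower and 0 higher, against 4.71% of all genes tested lower. FKBP4, a co-chaperone of steroid receptors, measured 44.8 to 60.9 (median 54.1) FPKM with vehicle and 33.5 to 52.6 (median 44.7) FPKM at 200 mg/kg (-0.29, limma adjusted p = 0.11). Of 14 glucocorticoid-responsive genes, 4 (28.6%) were higher and 0 lower, against 3.75% of all genes tested higher, with a median of 0.19. Between vehicle cage groups 3 and 2, 6 of the 14 (42.9%) were higher, with a median of 0.33. FKBP5, which lowers the affinity of the glucocorticoid receptor for its hormone, measured 3.37 to 8.59 (median 4.25) FPKM and 4.07 to 14.3 (median 6.99) FPKM (0.44, limma adjusted p = 0.487), and the others were KLF9 (0.26), PER1 (0.65) and CDKN1C (0.39). Against untreated tumors the difference of FKBP5 was 0.74. The difference of PER1 from vehicle was 1.23 in cage group 4 and 0.08 in cage group 5. PER1 is also a clock gene, and 2 of 20 clock genes tested were higher at the unadjusted level. Of the 24 NRF2 electrophile response genes tested, 1 was higher and 0 lower, and of the 28 genes of the integrated stress and unfolded protein response, 23 of sterol synthesis and 20 of fatty acid synthesis, 0 had an unadjusted p under 0.05 by limma in either direction. Of 29 DNA replication genes 2 were lower, and of 29 mitosis genes 2 were higher. Of the 22 palmitoylation and depalmitoylation enzymes 1 was higher and 1 lower. Among 25 immediate early and AP-1 factors 3 were lower and 2 higher, among 23 SRF and actin cytoskeleton genes 3 and 1, and among 20 MAPK feedback genes 2 and 2. Of 27 interferon response genes 2 were higher, and of 22 inflammatory chemokines and cytokines 0 had an unadjusted p under 0.05 by limma although their median was 0.35. Between vehicle cage groups 3 and 2, 7 of these 22 (31.8%) were higher at that level, with a median of 0.80. Of the 27 interferon response genes 8 (29.6%) were, with a median of 0.375, against 4.89% of all genes tested.

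Each 200 mg/kg cage group was also set against the 10 vehicle tumors, which both share. These vehicle tumors come from both runs of titles, so any difference between the runs enters each comparison. The relative depth of cage group 5 was below that of cage group 4 in every tumor, and depth and cage group cannot be told apart here. In cage group 4, 0 genes passed (0.00%), 597 (4.72%) had an unadjusted p under 0.05 by limma, and the smallest adjusted p was 0.172. In cage group 5, 21 genes (0.166%) passed, 18 lower and 3 higher, and 1187 (9.38%) had an unadjusted p under 0.05. CCN1 differed from vehicle by -0.59 (limma adjusted p = 0.172) in cage group 4 and by -0.86 (limma adjusted p = 0.000624) in cage group 5. For AMOTL2 the differences were -0.34 and -0.72, for CCN2 -0.54 and -0.71, and for ANKRD1 -0.25 and -0.87. Of the 18 lower genes in cage group 5, ANKRD1, VGLL3, SKP2, PKP2, TUFT1, CCN1, AMOTL2 and AJUBA belong to the pathway lists used here. RUSC2 and ADAMTS15 fell as well and belong to none of the lists. The remaining lower genes and the 3 higher ones also lay outside all lists used here. Positive effectors lower at an unadjusted p under 0.05 numbered 18 of 237 (7.59%) in cage group 4, where 2.37% of all genes tested were lower, and 44 (18.6%) in cage group 5, where 4.37% were. Negative effectors higher at that level numbered 18 of 189 (9.52%) in cage group 4, against 2.35% of all genes tested, and 15 (7.94%) in cage group 5, against 5.01%. The count of 21 fell to 3 without tumor 2 of cage group 5, to 8 without its tumor 4, to 7 and 9 without tumors 3 and 5 of vehicle cage group 2, and to 13 without tumor 3 of cage group 5 or tumor 1 of vehicle cage group 3. It was 9 with vehicle cage group 3 alone as the control.

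Tested directly, the 2 treated cage groups differed in 2 of 12654 genes (0.0158%), and neither was a YAP1-TEAD target of the lists used here. The difference between the vehicle cage groups was not subtracted. PTPN1, a tyrosine phosphatase, measured 54.3 to 67.2 (median 60) FPKM in cage group 4 and 40.3 to 49.3 (median 47.5) FPKM in cage group 5, against 54.7 to 66.1 (median 56.9) FPKM with vehicle. All 5 tumors of cage group 5 were below the other 15 (difference -0.37, limma adjusted p = 0.0319). PROSER2 measured 40.1 to 61.4 (median 46.2) FPKM in cage group 4 and 19.1 to 32.2 (median 30.6) FPKM in cage group 5, with vehicle at 32.4 to 57.2 (median 43.9) FPKM, and here too the 5 tumors of cage group 5 were lowest (difference -0.74, limma adjusted p = 0.0319). The differences between the cage groups were -0.27 for CCN1 (95% interval -0.58 to 0.04), -0.38 for AMOTL2 (-0.65 to -0.12), -0.62 for ANKRD1 (-1.05 to -0.18) and -0.17 for CCN2 (-0.58 to 0.24), and none of the 4 passed (limma adjusted p = 0.49 to 0.96). Of the 22 YAP/TAZ targets, 4 were lower and 0 higher in cage group 5 than in cage group 4 at an unadjusted p under 0.05, against 3.22% of all genes tested lower and 3.72% higher (6.95% together). The count of 2 became 0 without tumors 2, 3 or 5 of cage group 4 or 2, 3, 4 or 5 of cage group 5, and 1 without tumor 1 of cage group 4.

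**Figure D3:**
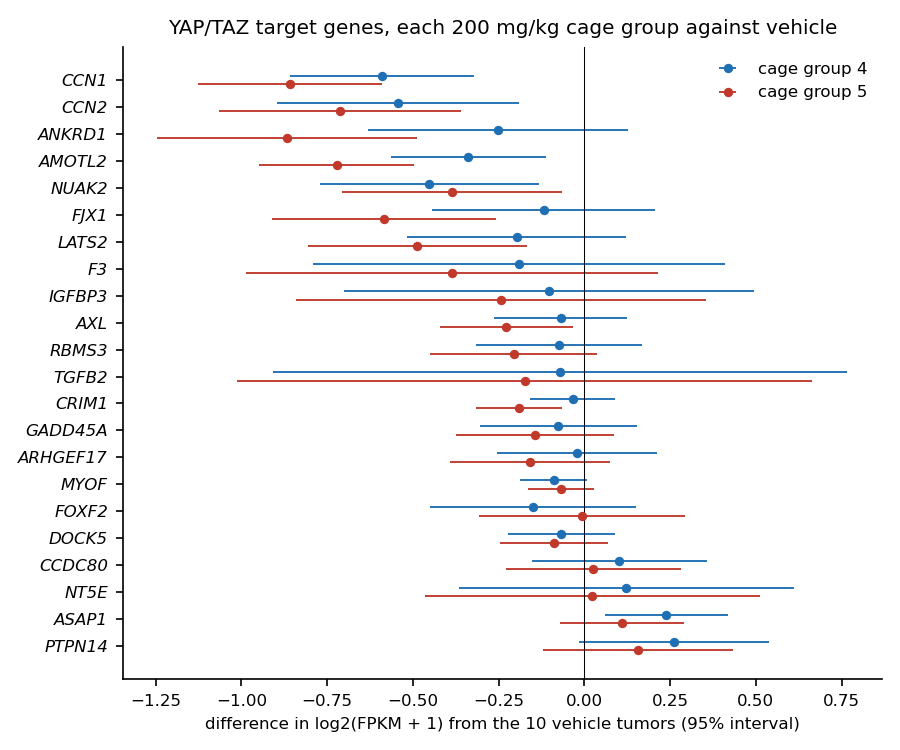
Difference in log2(FPKM + 1) from the 10 vehicle tumors (horizontal axis, points with 95% intervals) for the 22 YAP/TAZ target genes in each 200 mg/kg cage group. CCN1, CCN2, AMOTL2 and NUAK2 have intervals below 0 in both cage groups, those of ANKRD1, FJX1, LATS2, CRIM1 and AXL lie below 0 in cage group 5 and span it in cage group 4, and that of ASAP1 lies above 0 in cage group 4.

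The vehicle cage groups differed from each other as well. In vehicle tumors 6 of 12654 genes (0.0474%), FNIP1, FBXO32, MAFF, PFKFB4, FNDC3B and HKDC1, were higher in cage group 3 than in cage group 2, and 1215 (9.60%) had an unadjusted p under 0.05. The count of 6 was 76 without tumor 1 of cage group 3 and 1 to 3 without tumors 1, 2 or 3 of cage group 2 or 3, 4 or 5 of cage group 3. Of 25 hypoxia and glycolysis genes, 22 (88%) were higher in cage group 3 at the unadjusted level, with a median of 0.50, whereas between 200 mg/kg and vehicle 1 (ADM) was lower and 0 higher. HK2, the hexokinase of glycolytic tumors, differed by 2.26 between the vehicle cage groups (limma adjusted p = 0.0583) and by -0.08 between the arms. The difference between the vehicle cage groups was 0.24 for CCN1 (unadjusted p = 0.121), -0.0024 for CCN2 (unadjusted p = 0.99), -0.25 for AMOTL2 (unadjusted p = 0.0565) and -0.28 for AJUBA (unadjusted p = 0.0109). Of the 22 YAP/TAZ targets, 5 (22.7%) were higher and 0 lower in vehicle cage group 3 at the unadjusted level, against 4.89% of all genes tested higher and 4.71% lower. With cage group 2 alone as the control AJUBA fell by 0.51 on the log2 scale (limma adjusted p = 0.00745), and with cage group 3 alone the difference was -0.23 (limma adjusted p = 0.41).

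Between 200 and 100 mg/kg, 0 of 12654 genes (0.00%) passed the test, 828 (6.54%) had an unadjusted p under 0.05 by limma, and the smallest adjusted p was 0.121. Leaving out tumor 4 of cage group 5 or tumor 5 of cage group 7 (100 mg/kg) gave 1 gene. Of 237 positive effectors, 5 (2.11%) were lower and 8 (3.38%) higher at 200 than at 100 mg/kg at an unadjusted p under 0.05, against 3.51% and 3.03% of all genes tested. CCN1 was 233 ± 39.4 FPKM (SD, n = 5) in untreated tumors, 205 ± 39.9 (SD, n = 10) in the vehicle arm, 155 ± 15.5 (SD, n = 10) at 30 mg/kg, 120.4 ± 31.4 (SD, n = 10) at 100 mg/kg and 125 ± 33 (SD, n = 10) at 200 mg/kg. Its difference between the higher doses was 0.05 (95% interval -0.17 to 0.27). This interval rests on the spread within cage groups and leaves out variation between them, so it sets no bound on a further decrease. CCN2 was 9.8 ± 1.49 FPKM (SD, n = 10) in the vehicle arm, 7.83 ± 1.89 (SD, n = 10) at 30 mg/kg, 6.2 ± 2.07 (SD, n = 10) at 100 mg/kg and 6.04 ± 1.27 (SD, n = 10) at 200 mg/kg. AMOTL2 was 25.7 ± 4.36 FPKM (SD, n = 10) at 30 mg/kg and 18 ± 3.14 (SD, n = 10) at 100 mg/kg, beside 19.4 ± 4.44 (SD, n = 10) at 200 mg/kg. Between 200 and 100 mg/kg the difference was -0.25 for RAB6A and -0.28 for MINDY2 (limma adjusted p = 0.53 for both). The 30 and 100 mg/kg tumors received a smaller volume than the vehicle and 200 mg/kg tumors, and dose and volume cannot be told apart.

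**Figure D4:**
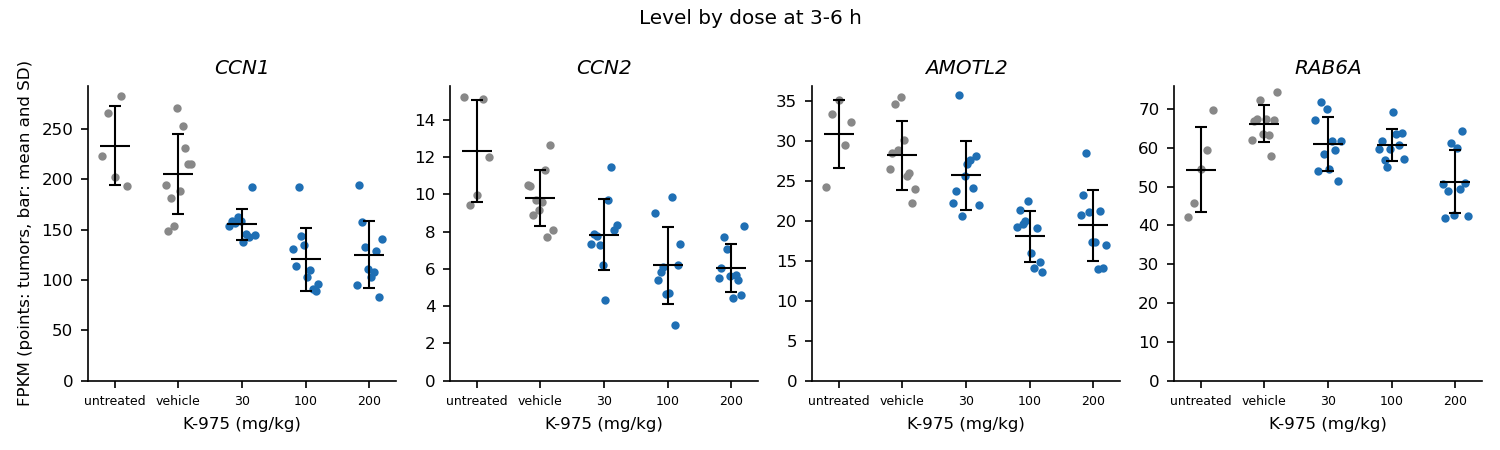
FPKM of CCN1, CCN2, AMOTL2 and RAB6A in each tumor at 3-6 h (points), by dose, with mean and SD as bars. CCN1, CCN2 and AMOTL2 are at similar levels at 100 and 200 mg/kg, and RAB6A is lowest at 200 mg/kg.

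At 24 h, in a separate study with 5 treated and 4 vehicle tumors, the effect of 200 mg/kg differed from that at 3-6 h in 224 of 13036 genes (1.72%), 129 more negative and 95 more positive. The time and the study coincide there and cannot be told apart. At 24 h vehicle tumors held 249 ± 35 FPKM of CCN1 (SD, n = 4), treated ones 106 ± 35.9 (SD, n = 5), and the later effect differed from the earlier one by -0.54 on the log2 scale (limma adjusted p = 0.237). The corresponding differences were -0.82 for CCN2 (limma adjusted p = 0.0666) and 0.13 for AMOTL2 (limma adjusted p = 0.758). TEAD4 stood at 48.2 ± 2.96 FPKM (SD, n = 4) in vehicle tumors of 24 h, against 28.4 ± 2.66 (SD, n = 5) in treated ones, and its effect differed by -0.62 (limma adjusted p = 0.0158). Of 240 positive effectors tested, 82 (34.2%) had a more negative effect at 24 h at an unadjusted p under 0.05, against 7.60% of all genes tested, and 8 (3.33%) a more positive one, against 8.75%. Of the 22 YAP/TAZ targets, 7 had a more negative effect at 24 h and 1 a more positive one, and IGFBP3 alone passed (-1.63, limma adjusted p = 0.0178). The count of 224 was 63, 633, 115 and 143 without 200 mg/kg tumors 1, 2, 3 and 4 at 24 h, 89, 89 and 97 without vehicle tumors 1, 2 and 3 at 24 h, 381 without tumor 5 of vehicle cage group 2 and 380 without tumor 4 of cage group 5.

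Of the markers of fibroblasts, endothelium and leukocytes, 0 passed the test. These are human genes and the host cells are mouse cells, so the values do not give the amount of host stroma, vessels or leukocytes. PECAM1 was at 0 in 18 of the 20 tumors, LYZ in 19 and TEK in 10. The summed level of 7 fibroblast markers was 616 to 971 FPKM with vehicle and 618 to 1025 at 200 mg/kg, most of it COL1A1 and COL3A1 (COL3A1 was higher at the unadjusted level, 0.29, limma adjusted p = 0.574), with COL1A2 listed at 0 in all 20 tumors. The 7 macrophage and leukocyte markers summed to 46 to 269 FPKM with vehicle and 89.3 to 195 at 200 mg/kg, most of it CD68, and CD163 was listed at 0 in all 20 tumors. The 6 endothelial markers summed to 51.4 to 102 FPKM with vehicle and 58.4 to 138 FPKM at 200 mg/kg, most of it KDR, while CDH5 and VWF were above 0 and CLDN5 at 0 in all 20 tumors. The ranges overlapped in each of these lists.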

How the data were processed

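RNA-seq was performed on NCI-H226 xenograft tumors, and the processed table gives 1 FPKM value per gene and tumor. The submitters' processing notes name STAR, with no version, and the build GRCh38. The deposited FPKM values are scaled by transcript length and library size, as the authors made them from libraries enriched by capture probes, so that levels depend on the capture. Reads were not analysed here and counts were not used, so depth in reads is unknown, and no counting interval was given. Of 20555 entries, 316 repeated ones were left out and 32 blank cells were read as 0.

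Genes that reached 1 FPKM in 4 or more of the 45 libraries of the 3-6 h study (12654 genes) were tested on log2(FPKM + 1) with limma 3.58.1 in R 4.3.3, with 1 coefficient per cage group, trended and robust moderation and Benjamini-Hochberg adjustment at 0.05. Fold changes on this scale understate those of low genes. The 24 h comparison used the 91 libraries of 3 studies with at least 10000 genes at an FPKM of at least 1 (13036 genes tested). A value of 0 may be a failed estimate, since 996 tested genes were at 0 in at least 1 of the 20 tumors, 2 of them with a median of at least 10 FPKM. The fit was tested on simulated data before use. Replicates are separate tumors by their labels. Tables and plots were made with Python 3.11.15, pandas 2.3.3, numpy 2.4.6 and matplotlib 3.10.9. The genes named are TEAD1 to TEAD4, YAP1, WWTR1, the YAP/TAZ targets, the genes past the threshold and those of lowest p in each comparison or list, with further genes named after their values were seen. The comparison, the lists and the alternatives were chosen with earlier results of these data known. Alternatives changed the libraries in the fit, the pseudocount, the filter, the normalization, the control group, the treatment of cages and the moderation.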

Additional observations from a re-analysis of the deposited data

Results flagged for a closer look

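In 13 of 124 groups of 10 tumors checked, 1 tumor lay far from the others. The rule flags about 1 group in 20 for independent normal values. That rate need not hold for FPKM over pooled cage groups, so the count is not compared with it. The gap to the nearest tumor, as a share of the group's range, is given here for each. Among vehicle tumors it was 0.701 for TEAD2 (tumor 5 of cage group 3, 23.5 FPKM, nearest 11.2), 0.470 for ANKRD1 (tumor 4 of cage group 3), 0.627 for IGFBP3 and 0.511 for NT5E (both tumor 2 of cage group 3), 0.602 for FJX1 (tumor 3 of cage group 2, the lowest) and 0.520 for ADM (tumor 5 of cage group 3). Among 200 mg/kg tumors it was 0.571 for WWTR1 (tumor 2 of cage group 5, 27.7 FPKM, nearest 18.5), 0.484 for MYOF (tumor 4 of cage group 5), 0.512 for ADAMTS15 (tumor 3 of cage group 4), 0.486 for WWC2 (tumor 2 of cage group 5, the lowest), 0.620 for ADM (tumor 2 of cage group 4), 0.699 for RAPGEFL1 and 0.537 for FKBP5 (both tumor 5 of cage group 4). The cause was not tested.

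The 200 mg/kg cage groups differed from each other in 2 genes by limma, PTPN1 (-0.3703 on the log2 scale, cage group 5 minus cage group 4) and PROSER2 (-0.7363). The effect of 200 mg/kg differed between 24 h and 3-6 h in 224 genes. Those named here were TEAD4 (-0.6232 on the log2 scale, effect at 24 h minus effect at 3-6 h), IGFBP3 (-1.6257), WWC1 (-0.5058), SKP2 (-0.7030), PROSER2 (-0.8355), NPPB (-1.6758) and MINDY2 (0.6169). The times come from separate studies, and the time and the study cannot be told apart.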

How the results depend on the processing

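The count of 9 genes between 200 mg/kg and vehicle was 0 with only the 20 tumors in the fit, 0 with all 94 libraries (3 of which held few genes), 1 with cage group as a random effect, 4 against vehicle cage group 3 alone, 2 without trended and robust moderation, and 2 to 11 without single tumors. Among the other settings it stayed within 1.5 times. The YAP/TAZ targets lower at an unadjusted p under 0.05 (9) were 5 against vehicle cage group 2 alone. With the 91 libraries of 3 studies the count was 1 for cage group 4, 36 for cage group 5 and 43 between vehicle cage groups, and against vehicle cage group 3 alone it was 9 for cage group 5. Without single tumors the counts ran from 0 to 2 for cage group 4, 3 to 28 for cage group 5, 0 to 3 between the 200 mg/kg cage groups, 0 to 1 between 200 and 100 mg/kg, 1 to 76 between vehicle cage groups and 63 to 633 for the effect at 24 h against 3-6 h, which was 0 with all 94 libraries.

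Signs turned for genes that had not passed the threshold, F3 (-0.29) and IGFBP3 (-0.17) among them. Against vehicle cage group 2 alone the log2 difference was -0.0706 for TEAD1, 0.063 for F3, 0.2838 for IGFBP3, -0.0699 for CCDC80 and 0.0006 for DOCK5. Against vehicle cage group 3 alone it was 0.0292 for TEAD3, 0.0383 for YAP1, -0.3005 for NT5E, 0.0012 for ARHGEF17 and 0.0736 for TGFB2. Against untreated tumors it was -0.1248 for TEAD1, 0.1698 for YAP1, 0.1419 for IGFBP3 and -0.0875 for CCDC80, and with median-of-ratios factors -0.0009 for TEAD1. Without single tumors it ran from -0.0312 to 0.0406 for TEAD1, -0.0429 to 0.0075 for YAP1, -0.0418 to 0.1948 for NT5E and -0.2606 to 0.0347 for TGFB2. The cause was not tested.

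No paired analysis was possible because replicate numbers follow the order of accessions and pair no tumors between groups. Depth in reads is unknown.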
